A study of Mus musculus with 8 samples.

Results

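Adhesion G protein-coupled receptors (adhesion GPCRs) are cell surface receptors with a long extracellular part, and 10 of their genes were chosen in microglia of the mouse spinal cord, among them the 9 described below: Adgrl1, Adgrl2, Adgrl3, Adgrl4, Adgre1, Adgre5, Adgrg1, Adgrg3 and Adgrg6. They were found by Ensembl identifier among the 54532 genes of the counts table, and all 10 were there, out of 30 mouse adhesion GPCR genes listed. The set was selected on measured values, because Adgrl1 was lower in the knock-in, so its difference between the genotypes is a description: Adgrl1 stays in the fits across all genes, but nothing is read from its calls in them. The libraries came from microglia, the macrophages that reside in brain and spinal cord, of 4 wild-type female mice (WT 503, WT 504, WT 506 and WT 527) and 4 female mice with the knock-in named Cd11b-P2X4mCherryIN (KI 513, KI 526, KI 528 and KI 549). The knock-in name joins P2X4, an ATP-gated cation channel, with mCherry, a red fluorescent protein, and CD11b, an integrin chain found on myeloid cells. The labels give 1 mouse number per library, and name no age, batch or treatment for either group. Living cells were sorted as CD11b+, CD45 low and Ly6C-, so monocytes bearing Ly6C were gated out. Each library held from 45167483 to 54049801 reads on genes, so a count of 0 allows up to 3 reads, or 0.0555 to 0.0664 CPM (read counts relative to library size). Where both reads of a pair were counted, it allows up to 6 reads, or 0.111 to 0.133 CPM.

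In an adhesion GPCR the extracellular part is usually cut by the receptor's own GAIN domain and stays attached, and its removal can expose a tethered agonist that turns on G proteins, among them those that act on adenylyl cyclase. Ligands are mostly membrane or matrix proteins: teneurins and FLRT proteins for the latrophilins (Adgrl1 to Adgrl3), collagen III and transglutaminase 2 for Adgrg1, CD55 for Adgre5. In this tissue Adgre1 (F4/80) is a classical macrophage antigen, Adgrg1 (GPR56) marks microglia of the central nervous system, latrophilins are best known from synapses, Adgrl4 from endothelium, Adgrg3 (GPR97) from granulocytes and Adgrg6 (GPR126) from Schwann cells.

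P2rx4, the gene of the knocked-in channel, was at 740 to 841 CPM in WT and 784 to 937 in KI; counts over whole genes do not separate the inserted sequence from the native one, so this does not check the genotype labels. The 13 microglial marker genes checked, among them P2ry12, Tmem119 and Sall1, were all measured, and their summed level ran from 30500 to 34000 CPM in WT and from 29100 to 32300 in KI. The growth factor receptor gene Csf1r was the 1 of the 13 with all KI values (2010 to 2540 CPM) below all WT values (2550 to 3130). The same pattern was seen in 2.6% of all tested genes (450 of 17291). Every list of other-cell markers held some reads, and no marker was at 0 in all 8 libraries. Because these are bulk samples, fewer cells of a type and less RNA per cell cannot be told apart.

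The receptors fell into 2 very abundant genes, 1 at a moderate level, 1 low and 5 at very low levels. Levels between genes are compared as RPKM, the CPM divided by the summed exon length in kb. Adgre1 stood highest, at 235 ± 22.9 RPKM in WT mice and 223 ± 15.7 in KI mice (SD, n = 4 each), above 98.99% of the tested genes in WT. Adgrg1 followed at 61.3 ± 6.7 RPKM in WT and 44.4 ± 6.26 in KI, above 95.15% of them. Adgrl2 was at 2.12 ± 0.798 and 1.75 ± 0.156 RPKM, above 42.86%, and Adgrl1 at 0.402 ± 0.0474 and 0.122 ± 0.0417 RPKM, above 17.21%. Adgre1, Adgrg1 and Adgrl2 were each above the next gene in 8 of 8 libraries, with ranges that did not overlap. The ratios of means were 3.84 in WT and 5.02 in KI for Adgre1 over Adgrg1. They were 28.9 and 25.4 for Adgrg1 over Adgrl2, and 5.28 and 14.3 for Adgrl2 over Adgrl1. Adgrl1 also exceeded Adgrl4, the next gene, in 8 of 8 libraries, but their ranges over the libraries overlapped. Below them the order was not resolved. Adgrl4 exceeded Adgre5 in 4 of 8, Adgre5 exceeded Adgrg3 in 3 of 8 and Adgrg3 exceeded Adgrl3 in 3 of 8. Adgrl3 was above Adgrg6 in 7 of 8 libraries, and Adgrg3 was above Adgrg6 in 4 of 8.

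**Figure D1:**
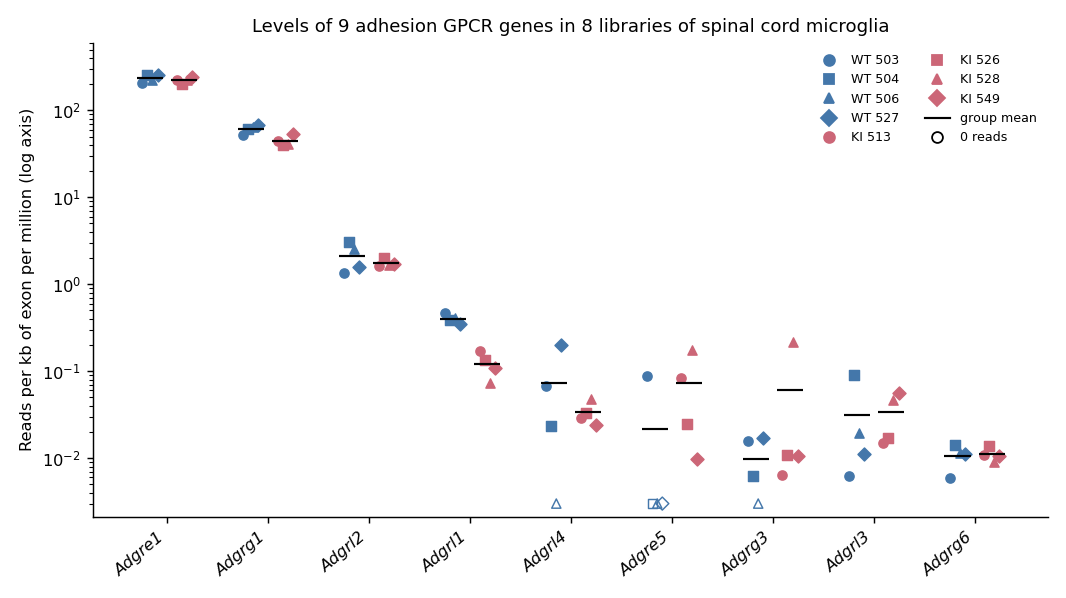
Level of each of the 9 receptor genes in each library, in RPKM on a log axis, with WT in blue, KI in red, a bar at each group mean and open symbols for 0 reads. Adgre1 and Adgrg1 stand far above the rest, and the 5 genes at the right overlap with one another.

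Adgre1 and Adgrg1 together took 93.2% to 95.6% of all reads on 29 family genes in each library. The 29 genes summed to 921.4 to 1247.9 CPM. Within this sum the share of Adgrg1 was 26.9% to 30.4% in the WT libraries and 22% to 25.9% in the KI libraries, without overlap. The ratio of Adgre1 to Adgrg1, in CPM, was 2.38, 2.46, 2.08 and 2.27 in WT 503, WT 504, WT 506 and WT 527, and 3.07, 3.04, 3.28 and 2.69 in KI 513, KI 526, KI 528 and KI 549. The ratio was thus higher in each KI library than in each WT library, a description taken from the contrast on which the genes were chosen.

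The latrophilins come first. Adgrl1 (latrophilin 1, ENSMUSG00000013033), a receptor of teneurins and FLRT proteins and of the spider toxin alpha-latrotoxin, lies on mm10 chromosome 8, 83900105 to 83941954, plus strand. Its level was 3.99, 3.32, 3.48 and 3.01 CPM in WT 503, WT 504, WT 506 and WT 527, and 1.47, 1.15, 0.621 and 0.945 CPM in KI 513, KI 526, KI 528 and KI 549. All KI values lay below all WT values, and the spread was narrow beside the gap. The means were 3.45 ± 0.407 CPM in WT mice and 1.05 ± 0.358 in KI mice (SD, n = 4 each), a log2 fold change (KI over WT, edgeR) of −1.72, or 3.29-fold higher in WT. These levels rest on few reads: 218, 155, 173 and 152 in the WT libraries and 66, 61, 28 and 51 in the KI libraries. Of the 17291 tested genes, 149 had a lower log2 fold change than Adgrl1, 15 of them among the 13516 genes whose mean was 1 CPM or more. Among the 9 genes, Adgrl1 was the 1 with no overlap in this direction, and 2.6% of the tested genes (450) showed the same pattern; nothing is read from this for a gene chosen on the contrast.

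Adgrl2 (latrophilin 2, chromosome 3, 148815583 to 148990555, minus strand), the paralog that carried most latrophilin reads, varied more between WT mice than between the genotypes. It was at 19.1, 43.2, 35.8 and 22.4 CPM in WT 503, WT 504, WT 506 and WT 527 and at 23.2, 28.1, 23.6 and 24.4 CPM in KI 513, KI 526, KI 528 and KI 549. The KI values all lay inside the WT range, and the coefficient of variation was 37.6% in WT and 8.95% in KI. The edgeR estimate of log2 fold change was −0.28 (standard error, SE, 0.238; 95% interval −0.81 to 0.25; adjusted p = 0.852). The balance of the paralogs was described by their ratio, which also holds the contrast used to choose Adgrl1. The ratio of Adgrl2 to Adgrl1 in CPM was 4.79, 13, 10.3 and 7.44 in the WT libraries and 15.8, 24.5, 38.1 and 25.8 in the KI libraries, in the same order.

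**Figure D2:**
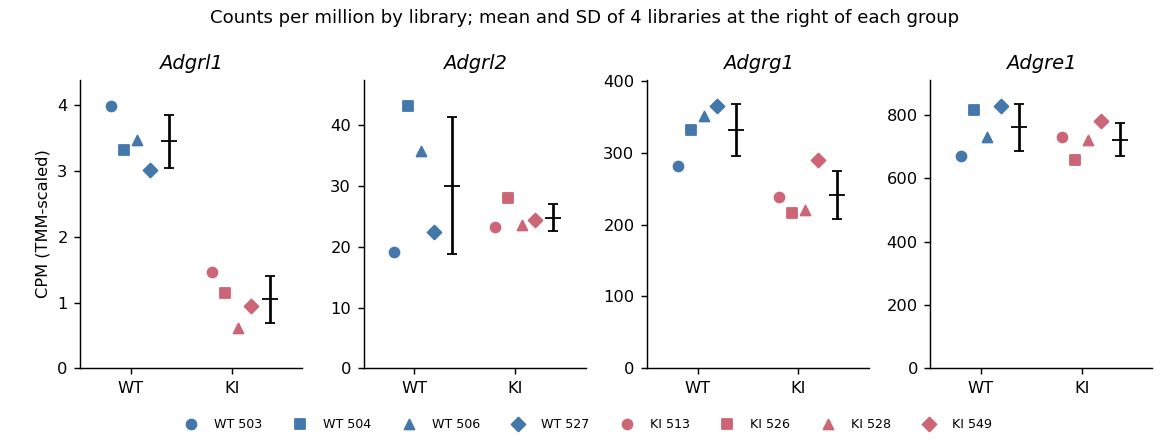
CPM of Adgrl1, Adgrl2, Adgrg1 and Adgre1 in each library, on axes that start at 0, with the mean and SD of the 4 libraries beside each group. The groups are apart for Adgrl1, touch for Adgrg1 (282 CPM in WT 503 against 290 in KI 549) and overlap for Adgrl2 and Adgre1.

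Adgrl3 (latrophilin 3, chromosome 5, 81020138 to 81825133, plus strand), also a receptor of teneurins and FLRT proteins, was low, with 6 reads in WT 503 and at most 74 (WT 504). It was at 0.11, 1.59, 0.342 and 0.198 CPM in WT 503, WT 504, WT 506 and WT 527 and at 0.268, 0.301, 0.82 and 1.0 in KI 513, KI 526, KI 528 and KI 549. WT 504 alone lifted the WT mean, and the groups overlapped. The log2 fold change of 0.10 had an interval of −1.86 to 2.06 (edgeR adjusted p = 0.991), and it was 1.46 without WT 504. The summed neuronal markers (14 genes) were at 27.8 CPM in WT 504 and highest in KI 526 (38.2 CPM), where Adgrl3 was at 0.301. Elavl4 alone made up 14.5 CPM of the sum in WT 504. Of the 14 markers, 7 were highest in KI 526 and 3 in WT 504, among the latter Syt1 (3.13 CPM) and Nefm (2.14 CPM). The part of other cells in the levels of Adgrl3 was not tested.

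Adgrl4 (chromosome 3, 151437887 to 151545086, plus strand), a receptor of endothelial cells, did not pass the filter on low counts. Its level was 0.311, 0.107, 0 and 0.912 CPM in WT 503, WT 504, WT 506 and WT 527 and 0.134, 0.151, 0.222 and 0.111 in KI 513, KI 526, KI 528 and KI 549. WT 527 and WT 503 were highest, and WT 506 had no read. The 13 endothelial markers summed to 37.4 to 57.2 CPM in WT and 48.7 to 52.5 in KI, most of it Pecam1 (29.4 to 49.2 CPM). The sum was lowest in WT 503. Cldn5, a tight junction gene of brain endothelium, was at 0 in WT 503, WT 506, WT 527 and KI 549. Cdh5, also on the endothelial list, was at 1.05 CPM in WT 527 and 1.02 in WT 503, and at most at 0.684 elsewhere. Of the 13 markers, 3 were highest in WT 527, 3 in WT 504 and 2 each in KI 526 and KI 549. WT 503, WT 506 and KI 528 each held the highest value of 1. The pericyte gene Rgs5 was at 4.79 CPM in WT 503 and 3.53 in WT 527, and at most at 0.704 elsewhere, whereas Abcc9, another marker of the same list, was highest in KI 549 (1.87 CPM). The sum of the 8 pericyte and mural markers was 1.21 to 6.32 CPM in WT and 1.13 to 3.43 in KI, none of them at 0 throughout. Whether vessel cells gave the Adgrl4 reads was not tested.

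Promoters are shown for the receptors whose genotype values are described most fully: Adgrl1, its more even paralog Adgrl2, and Adgrg1 with its 2 annotated starts. The sequences are RefSeq windows of 300 bases on GRCm38.p6, from 250 before to 50 after the start, 5′ to 3′ on the gene's strand; 7 of the 9 genes matched an entry, with 10 promoters. Capitals mark 3 searched motifs on either strand, the PU.1 core GAGGAA (or TTCCTC), the GC box GGGCGG (or CCGCCC) and the TATA box TATAAA (or TTTATA), and no marked matches overlap. The windows are chr8:83899848-83900147 (plus strand) for Adgrl1, chr3:148954586-148954885 (minus strand) for Adgrl2, and chr8:94976859-94977158 and chr8:94984149-94984448 (plus strand) for starts a and b of Adgrg1.
Adgrl1: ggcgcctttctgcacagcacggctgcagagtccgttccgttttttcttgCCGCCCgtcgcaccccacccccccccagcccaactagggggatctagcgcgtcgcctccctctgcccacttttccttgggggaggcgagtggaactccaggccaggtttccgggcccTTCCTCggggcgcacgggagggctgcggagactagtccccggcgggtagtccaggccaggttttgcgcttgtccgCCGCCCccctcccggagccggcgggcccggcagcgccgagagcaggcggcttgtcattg
Adgrl2: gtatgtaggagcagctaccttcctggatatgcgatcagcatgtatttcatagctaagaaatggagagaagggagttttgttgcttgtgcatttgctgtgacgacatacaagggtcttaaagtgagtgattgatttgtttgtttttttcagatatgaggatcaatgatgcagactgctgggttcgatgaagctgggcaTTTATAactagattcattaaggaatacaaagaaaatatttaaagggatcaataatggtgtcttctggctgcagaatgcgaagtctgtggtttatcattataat
Adgrg1 start a: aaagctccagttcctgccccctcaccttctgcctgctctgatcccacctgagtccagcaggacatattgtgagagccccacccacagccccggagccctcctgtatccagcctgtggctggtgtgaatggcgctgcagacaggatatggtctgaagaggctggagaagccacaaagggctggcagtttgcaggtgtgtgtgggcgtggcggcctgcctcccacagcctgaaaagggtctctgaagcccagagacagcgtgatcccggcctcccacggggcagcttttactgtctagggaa
Adgrg1 start b: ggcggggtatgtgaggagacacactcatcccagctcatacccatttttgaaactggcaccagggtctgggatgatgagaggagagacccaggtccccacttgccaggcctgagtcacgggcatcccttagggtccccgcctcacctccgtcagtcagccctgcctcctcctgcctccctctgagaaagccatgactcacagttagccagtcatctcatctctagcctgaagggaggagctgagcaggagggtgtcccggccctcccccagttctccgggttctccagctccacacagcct

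The Adgrl1 window is rich in G and C (70.0%, against a median of 52.7% over 32851 promoters) and holds 28 CpG pairs, where the median is 7. It has 1 PU.1 core, found in 28.3% of all promoters of the same length, and 2 GC boxes, found in 35.7%. The Adgrl2 window has 38% G and C, 4 CpG pairs and 1 TATA box, a match found in 13.6% of promoters. Both Adgrg1 windows have 60.7% G and C, with 7 and 6 CpG pairs and none of the 3 motifs. The Adgrl1 window holds the first base of its gene (83900105). The Adgrl2 window lies inside its gene, whose 5′ end on the minus strand is at 148990555. Both Adgrg1 windows lie inside theirs, which begins at 94974751. The windows thus come from unlike starts, and their contents are not compared between genes. The values describe the letters in the windows, and factor binding was not measured.

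Reads near Adgrl1 were examined because the counts carry no strand. Of its 8587 exon bases, 1343 (15.64%) are shared with 3 antisense gene models, Gm10644, Gm44450 and Gm44330, and the header of the counts shows neither a strand option nor one that lets a read count for several genes, so reads there may be missing from the count of Adgrl1. Gm10644 averaged 0.249 ± 0.3 CPM in WT mice and 0.577 ± 0.651 in KI mice (SD, n = 4 each), and was highest in KI 513 (1.54 CPM). Levels of the nearest protein-coding genes overlapped between the groups. Asf1b, a histone chaperone gene 13553 bases after it, averaged 15.2 ± 3.22 CPM over the WT libraries and 18.5 ± 3.63 over the KI libraries (log2 fold change 0.28, edgeR adjusted p = 0.806). Prkaca, a catalytic subunit of protein kinase A 31039 bases after it, averaged 12.5 ± 2.52 and 13.7 ± 1.22 CPM (0.13, edgeR adjusted p = 0.926). On the other side the neighbours are farther away. The helicase gene Ddx39, 173213 bases before Adgrl1, averaged 70.0 ± 6.27 and 73.5 ± 4.9 CPM (0.07, edgeR adjusted p = 0.923). Adgre5, described below, lies nearer, 158779 bases before Adgrl1, and did not pass edgeR's filter.

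**Figure D3:**
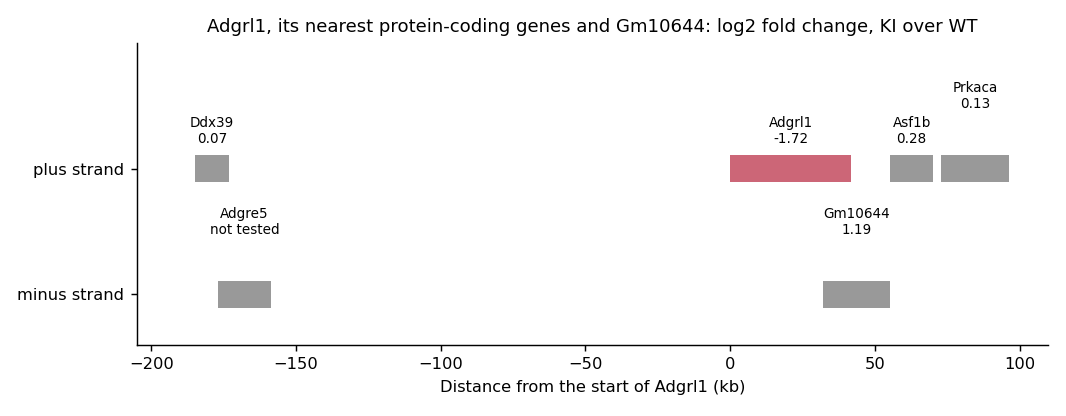
Genes around Adgrl1 by strand, placed by distance in kb from the start of Adgrl1, with the log2 fold change (KI over WT) written above each; Gm44450 and Gm44330, which had 0 reads, are not drawn. Adgrl1 is at −1.72, while Ddx39, Asf1b and Prkaca lie between 0.07 and 0.28. Gm10644, which overlaps Adgrl1, is at 1.19 with a wide interval (−1.04 to 3.43).

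Base composition also differed between libraries. The longest transcript of Adgrl1 has 59.14% G and C, above 95.71% of the tested genes, whose median is 48.48%. The slope of log2 level on GC content, per 10 percentage points, ran from −0.0291 to 0.0903 over the WT libraries and from −0.102 to 0.0452 over the KI libraries. With each library's GC trend removed the log2 fold change of Adgrl1 was −1.56, and with trends on GC and length removed −1.55.

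Of the ADGRE receptors, Adgre1 (F4/80, chromosome 17, 57358691 to 57483527, plus strand) was the most abundant gene of the set and was close between genotypes. Its level was 671, 815, 730 and 828 CPM in WT 503, WT 504, WT 506 and WT 527 and 730, 657, 721 and 780 CPM in KI 513, KI 526, KI 528 and KI 549. The ranges overlapped over most of their length, with means of 761 ± 74.2 and 722 ± 50.9 CPM (SD, n = 4 each). On the log2 scale the difference was −0.08 (SE 0.0799, 95% interval −0.25 to 0.10; edgeR adjusted p = 0.887), so the interval bounds a WT excess at 1.19-fold. Markers of border-associated macrophages, which also carry F4/80, were low: the 8 genes summed to 6.24 to 10.5 CPM in WT and 4.49 to 19.7 in KI.

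Adgre5 (CD97, chromosome 8, 83723251 to 83741326, minus strand), a leukocyte receptor of CD55, was read 18 times in WT 503 and never in WT 504, WT 506 and WT 527. In KI 513, KI 526, KI 528 and KI 549 it had 14, 5, 30 and 2 reads, that is 0.312, 0.0941, 0.665 and 0.0371 CPM. Reads were thus present in all KI libraries and in 1 WT library (0.329 CPM), but the ranges overlapped, and the gene did not pass edgeR's filter. In the 3 WT libraries at 0, a count of 0 allows up to 3 reads, or 6 where both reads of a pair were counted. The 2 reads in KI 549 lie below the first limit and the 5 in KI 526 below the second. Presence in these KI libraries against absence in the WT libraries is thus not resolved. Of its exon bases 24.65% are shared with Ddx39 or Mir1668, where reads may likewise be missing from its count. KI 528, the library with the highest Adgre5, also had the highest sum of the 9 monocyte markers, at 49.2 CPM. The sum was 16 to 28.5 in WT and 25.2 to 30.4 in the other KI libraries. Ms4a4c alone made up 28.8 of the 49.2 CPM in KI 528. Of the 9 markers, 4 were highest in KI 528. Ly6c2 was at 0 there, and Ccr2 was highest in KI 549 (6.19 CPM), where Adgre5 was at 0.0371 CPM. The part of monocytes in the Adgre5 reads was not tested.

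Among the ADGRG receptors, Adgrg1 (GPR56, chromosome 8, 94974751 to 95014217, plus strand), a receptor of microglia and neural precursors that binds collagen III, had a lower mean in KI. Its level was 282, 331, 351 and 365 CPM in WT 503, WT 504, WT 506 and WT 527 and 238, 216, 220 and 290 CPM in KI 513, KI 526, KI 528 and KI 549. The groups touched only through WT 503 and KI 549, and the other 3 KI libraries lay below all WT libraries. The means were 332 ± 36.3 and 241 ± 33.9 CPM (SD, n = 4 each), 1.38-fold higher in WT (interval 1.16 to 1.63). The log2 fold change was −0.46 (SE 0.109, 95% interval −0.71 to −0.22), which did not pass edgeR's quasi-likelihood test after adjustment over all genes (unadjusted p = 0.00169, adjusted p = 0.507) but did pass DESeq2 (adjusted p = 0.0309). Its longest transcript has 56.25% G and C, and with each library's GC trend removed the log2 fold change was −0.33.

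Adgrg3 (GPR97, chromosome 8, 95017692 to 95045250, plus strand), a granulocyte receptor that starts 3475 bases after the end of Adgrg1, was at 0.11, 0.0429, 0 and 0.119 CPM in WT 503, WT 504, WT 506 and WT 527 and at 0.0446, 0.0753, 1.49 and 0.0741 CPM in KI 513, KI 526, KI 528 and KI 549. A single library, KI 528, stood apart with 67 reads, where the others had at most 6, and the gene did not pass edgeR's filter. Of 12 neutrophil markers 7 were also highest in KI 528, among them Ngp at 27.3 CPM, S100a8 at 9.98, Camp at 7.69 and Ltf at 5.54. The other 5 were not: Mpo and Elane, genes of primary granules, were highest in WT 527 (0.297 and 0.436 CPM) and at 0 and 0.0887 CPM in KI 528, and Cxcr2 was highest in WT 506 (0.886 CPM against 0.0443). Ngp and S100a8 were also present in WT 504 (Ngp 11.9, S100a8 3.13 CPM) and KI 513 (Ngp 9.37, S100a8 3.75 CPM), where Adgrg3 was at 0.0429 and 0.0446 CPM. The whole list summed to 258 to 334 CPM in WT and 220 to 304 in KI. Most of it was Csf3r (257 to 333 CPM in WT and 218 to 256 in KI, without overlap), which made up 242 of the 304 CPM in KI 528. None of the 12 was at 0 throughout, and Ly6g was at most at 0.0429 CPM. The part of such cells in the Adgrg3 reads was not tested.

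**Figure D4:**
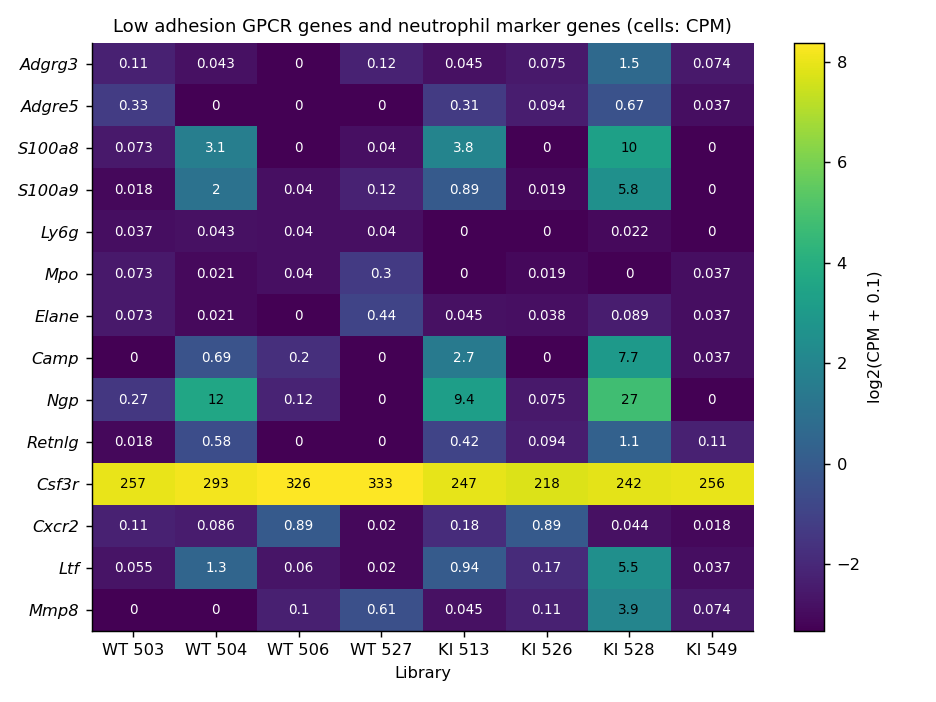
CPM of 2 low receptor genes and the 12 neutrophil markers in the 8 libraries, with the value in each cell and colour by log2(CPM + 0.1). KI 528 holds the highest value of both receptors and of 7 markers, while WT 504 and KI 513 have Ngp (11.9 and 9.37 CPM) without a high Adgrg3.

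Adgrg6 (GPR126, chromosome 10, 14402583 to 14545659, minus strand), the receptor that Schwann cells need to form myelin, was at the limit of detection in all libraries. It was read 4, 8, 7 and 7 times in WT 503, WT 504, WT 506 and WT 527 and 6, 9, 5 and 7 times in KI 513, KI 526, KI 528 and KI 549. The means of 0.131 ± 0.0414 and 0.136 ± 0.0244 CPM differed by less than the spread, and the gene did not pass edgeR's filter (DESeq2 log2 fold change 0.06, adjusted p = 0.992). The 6 Schwann cell markers checked summed to 0.357 to 1.22 CPM in WT and 0.0185 to 1.93 in KI, and Prx, a gene of peripheral myelin, was at most at 0.686 CPM.

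Of these 9 receptors, 5 passed the filter on low counts, 4 with a log2 fold change below 0 and 1 above. At an adjusted p under 0.05, edgeR's quasi-likelihood test called 0 members and 0 of 17291 genes (0%). At an unadjusted p under 0.05 it gave 1347 genes (7.79%), among them Adgrg1 and, as the gene the set was chosen for, Adgrl1. DESeq2 called 248 of 19637 genes (1.26%), again with these 2 members. The counts are descriptions from which nothing is read. Of the 4 members below edgeR's filter, DESeq2 gave Adgrl4 a log2 fold change of −1.11 (adjusted p = 0.842) and Adgre5 1.74 (adjusted p = 0.848), and gave no adjusted p for Adgrg3.

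**Figure D5:**
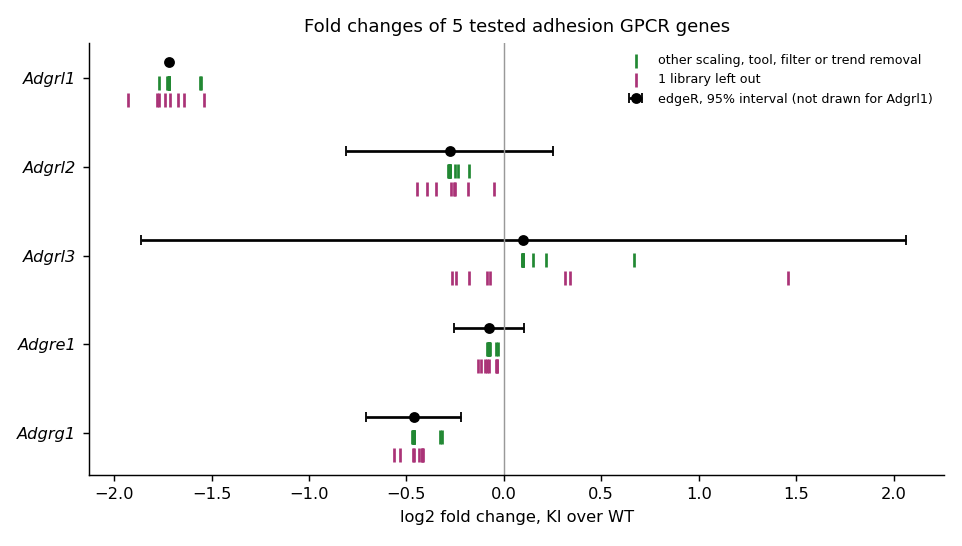
Log2 fold change (KI over WT) of 5 tested receptors, with the edgeR estimate and its 95% interval in black (no interval for Adgrl1), other scalings, tools, filters and trend removals as green ticks and fits without 1 library as purple ticks. Adgrl1 stays between −1.93 and −1.54 and Adgrg1 between −0.56 and −0.32, while Adgrl3 crosses 0.

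The other 20 adhesion GPCR genes were low. Only Adgra3 and Adgre4 had a mean of at least 1 CPM. Adgra3, an orphan receptor, averaged 9.63 ± 1.81 CPM over the WT libraries and 7.8 ± 2.41 over the KI libraries (log2 fold change −0.30, edgeR adjusted p = 0.84), and Adgre4, a macrophage relative of Adgre1, 14.8 ± 4.18 and 13 ± 6.34 CPM (−0.19, edgeR adjusted p = 0.953). The other 18 had means of 0.0434 to 0.626 CPM, and 8 of them were tested. Over 15 tested family genes 12 were below 0, with a median log2 fold change of −0.28. Over all genes tested 49.9% were below 0, with a median of 0.00. The 15 include the 5 tested members, among them Adgrl1, the gene the set was chosen for. They also include the 8 tested genes with means under 1 CPM outside the members, so nothing is read from this count. Outside the members, 0 of 10 were at an unadjusted p under 0.05 by edgeR, and DESeq2 called none of them.

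Genes that act with these receptors were described from 5 lists: ligands, G protein subunits, cAMP genes, receptor kinases with arrestins and RGS proteins, and scaffolds. Of their 89 tested genes, 5 (5.62%) had an edgeR p under 0.05 before adjustment, of which 3 were higher and 2 lower in KI, beside the 7.79% of all genes; edgeR called 0 and DESeq2 1. The count was 9 without KI 549. Among 19 tested ligands, 12 were below 0 (median −0.08) and 1 was at p under 0.05. This was Tgm2, transglutaminase 2 and a ligand of Adgrg1, with 18.3, 15.6, 21.7 and 14.6 CPM in the WT libraries and 12.6, 13.6, 10.6 and 12 in the KI libraries, without overlap (log2 fold change −0.52, edgeR adjusted p = 0.552). The most abundant ligand genes, Cd47 (546 ± 47.9 CPM in WT, 589 ± 27.6 in KI) and the integrin gene Itgav (261 ± 13.8 and 248 ± 20.9), overlapped between groups.

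The 25 tested G protein subunit genes had a median log2 fold change of 0.07, and those at an unadjusted p under 0.05 were 1 higher gene and 1 lower. Gng12, a gamma subunit, averaged 103 ± 5.8 CPM over the WT libraries and 86.9 ± 6.99 over the KI libraries (log2 fold change −0.25, edgeR adjusted p = 0.554), with no overlap. Gnb1 (569 ± 20.9 and 615 ± 54.4 CPM) and Gna15 (567 ± 37.2 and 492 ± 80.4) were the most abundant and overlapped. DESeq2 called 1 gene of this list, Gnb4, a beta subunit, which is too low for the naming rule and was picked out after its value was seen.

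In the cAMP list none of 18 tested genes was at an unadjusted p under 0.05 by edgeR, DESeq2 called 0, and the median was 0.08. Prkar1a, a regulatory subunit of protein kinase A, averaged 522 ± 37 CPM in WT mice and 521 ± 38.7 in KI mice, and the transcription factor gene Creb1 150 ± 13.6 and 141 ± 11.3. Among receptor kinases, arrestins and RGS proteins, 1 of 15 was at p under 0.05: Rgs2, which shortens signalling by Gq, averaged 718 ± 37.1 and 823 ± 50.9 CPM (log2 fold change 0.20, edgeR adjusted p = 0.553). Rgs10, another RGS gene, averaged 548 ± 27.9 and 583 ± 11.6 CPM. Of 12 tested scaffold genes 1 was at p under 0.05, the tetraspanin gene Cd9 (1480 ± 89.6 and 1630 ± 93.3 CPM, log2 fold change 0.14, edgeR adjusted p = 0.633), while Cd81, a tetraspanin that forms a complex with Adgrg1, averaged 5510 ± 335 and 5660 ± 491 CPM.

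Patterns over the 8 libraries were compared with 9032 named genes of at least 5 CPM by Pearson r of log2 CPM, as a description. The 5 genes most like Adgrl1 were Fance (r = 0.96), Gpsm1 (0.95), Rcc2 (0.94), St5 (0.94) and Paqr7 (0.93). All 5 were lower in each KI library than in each WT library, which their choice by likeness to Adgrl1 favours, and within the groups, with the group means removed, their r with Adgrl1 was 0.36 to 0.70. Gpsm1, a modulator of Gi proteins, averaged 7.38 ± 1.57 CPM over the WT libraries and 3.08 ± 0.959 over the KI libraries (log2 fold change −1.26). The 5 most like Adgre1 were Rtcb (r = 0.96), Polr3gl (0.95), Sbf1 (0.95), Tspyl3 (0.94) and Copa (0.93), with an r within the groups of 0.92 to 0.99. Both sets share their libraries and depth with the receptor they were compared with.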

How the data were processed

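The authors deposited counts of reads per gene. Per the file headers, featureCounts summed reads over the exons of each gene, from paired input, with primary alignments only and no strand option. Both reads of a pair could add to a count (68.88% to 70.8% of counts from 1 to 9 were even), and a read on exons of 2 genes was not given to both. The tools, per the submitters' processing notes, include the aligner STAR (version 2.7.5c), featureCounts (2.0.3), SAMtools (1.9), R (3.6.0), limma and edgeR, and the genome build was mm10; the annotation's version is not given in the sources used. Of 54532 genes, 54409 had a symbol in the GENCODE annotation of that build, and 98.26% of these had the same span. There were 8 further sample columns, which match no label and were not used.

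Differences were fitted to the deposited counts with edgeR (version 4.0.16, R 4.3.3): TMM scaling, filterByExpr with minimum count 10 and minimum total 15, a robust quasi-likelihood test with group as the only term, and Benjamini-Hochberg adjustment over the 17291 genes tested, with a threshold of 0.05. CPM are TMM-scaled. DESeq2 1.42.0 (Wald test) and limma 3.58.1 (voom) were alternatives, beside other scalings, no filter, halved counts, GC and length trends removed (loess, span 0.5, from the longest transcript, known for 99.96% of the genes tested) and leaving out each library. On counts simulated with the dispersions and scaling that edgeR had estimated, DESeq2 made a larger share of false calls than edgeR. As that setting is edgeR's own, it does not rank the tools on the real counts. The p-values measure the spread between mice; reads carry no molecular identifiers, so the limits cover counting error only. The members were named, with other family genes at a mean of at least 1 CPM, and of each other list the 2 most abundant genes and up to 2 per direction with the smallest p under 0.05 and at least 5 CPM. Results of 1 member, 1 gene list and 2 markers are not reported here. The members and lists were chosen with earlier results of these data known.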

Additional observations from a re-analysis of the deposited data

Results flagged for a closer look

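Of 18 groups (9 genes in WT and in KI), 3 held 1 library far from the other 3, with a gap to the nearest that took up most of the whole range (Dixon's test at 95%); chance flags about 1 in 20 groups. Adgrl3, a latrophilin, was at 1.59 CPM (74 reads) in WT 504, where the other WT libraries had 0.11 to 0.342 CPM. Adgre5, the receptor of CD55, was at 0.329 CPM (18 reads) in WT 503 and had no read in the other WT libraries; with 3 values at 0 the gap is the whole range whatever the other value is, so the chance rate does not apply. Adgrg3, the granulocyte receptor, was at 1.49 CPM (67 reads) in KI 528, against 0.0446 to 0.0753 CPM in the other KI libraries. All 3 genes were low throughout.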

How the results depend on the processing

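Adgrg1 kept its direction in 18 of 18 alternatives, from −0.56 to −0.32 (log2 fold change, KI over WT); Adgrl1, whose choice fixed its direction, ran from −1.93 to −1.54. Adjusted p ran from 0.0309 to 0.864 for Adgrg1. Adgre1 (−0.13 to −0.03) and Adgrl2 (−0.45 to −0.05) also stayed below 0. Adgrl3 turned from 0.10 to −0.25 without WT 503, −0.07 without WT 506, −0.18 without WT 527, −0.09 without KI 528 and −0.27 without KI 549; over the fits without 1 library it ran from −0.27 to 1.46. With halved counts, Adgrl3 did not pass the filter and gave no value. It rests on 6 to 74 reads per library. Genes called numbered 0 by edgeR's quasi-likelihood test, also without any 1 library (0 to 0), 248 by DESeq2 and 42 by edgeR's likelihood ratio test, with 1347 at an unadjusted p under 0.05. Members called numbered 0, also without any 1 library, 2 by DESeq2 (Adgrl1 and Adgrg1) and 1 by the likelihood ratio test (Adgrl1); Adgrl1 was chosen on this contrast, so its calls are no result, and the cause was not tested. Genes of the 5 lists at an unadjusted p under 0.05 numbered 5, with 8 by DESeq2 and 5 to 9 without 1 library (9 without KI 549). Dividing by the longest transcript in place of all exons moved the WT level of Adgrl2 to 4.98, Adgrl3 to 0.0823, Adgrg1 to 91.9, Adgrg3 to 0.0224 and Adgrg6 to 0.0201 RPKM. No paired analysis was possible because the groups share no mouse numbers. The other 4 members did not pass edgeR's filter.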
